A study of Mus musculus with 21 samples.

Results

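Messenger RNA levels of 10 heat shock protein genes were followed in 21 mouse RNA sequencing libraries. They were the rows named Hspa1a, Hspa1b, Hspa8, Hsp90aa1, Hsp90ab1, Hsph1, Dnajb1, Hspb1, Hspd1 and Hspe1 in both deposited tables, 10 of the 43802 features that either table lists. In the files' Ensembl IDs these are ENSMUSG00000091971, ENSMUSG00000090877, ENSMUSG00000015656, ENSMUSG00000021270, ENSMUSG00000023944, ENSMUSG00000029657, ENSMUSG00000005483, ENSMUSG00000004951, ENSMUSG00000025980 and ENSMUSG00000073676, in that order. All 10 were found in both tables. The Neuro2a table has 31553 features and the table of mouse nuclei has 39008.

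Neuro2a is a mouse neuroblastoma line. CRISPR activation uses a guide RNA to place a nuclease-dead Cas9, fused to the activator domain VP64, at a promoter, here that of the sodium channel gene Scn2a. 6 Neuro2a samples received 750 ng of the guide plasmid (sgRNA) and 750 ng of the sadCas9-VP64 plasmid (CRISPRa). Another 6 received 750 ng of the sadCas9-VP64 plasmid alone (VP64), so every Neuro2a sample carried the activator. The second experiment used cortical nuclei sorted for the neuronal protein NeuN, from 3 Scn2a+/- mice given rAAV (Het CRISPRa), 3 Scn2a+/- mice (Het) and 3 wild-type mice (WT). All mice were on a C57BL/6J background. Per the labels, 500 nL of rAAV carrying guide and sadCas9-VP64 in equal parts went into the medial prefrontal cortex, 4 weeks passed, and nuclei came from 200 mg of cortex. The labels leave unsaid whether the WT and the Het animals were injected, what promoter drives the activator, how old the mice were, or what share of the sorted nuclei received virus.

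Heat shock proteins are chaperones that hold, fold or disaggregate other proteins. HSP70 proteins bind exposed hydrophobic stretches in an ATP cycle that J-domain proteins (HSP40) start and nucleotide exchange factors end, and HSP90 takes over many signalling proteins from HSP70. In mitochondria the HSP60 and HSP10 chaperonin folds imported proteins. Some of these genes are on in all growing cells (Hspa8, Hsp90ab1, Hspd1, Hspe1). Others are best known for a steep rise with heat or misfolded protein through the transcription factor HSF1 (Hspa1a, Hspa1b, Hspb1, Dnajb1, Hsph1, Hsp90aa1). These classes are not exclusive, since a gene that is on in all growing cells can also be raised through HSF1. HSF1 binds heat shock elements, inverted repeats of short GAA units.

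Promoter windows are shown so that members that rose, that fell and that were near 0 in these libraries can be compared for the letters of the heat shock element. RefSeq windows of 300 bases, 250 before to 50 after an annotated start on build GRCm38.p6, were at hand for 7 of the 10 members. Hspa8, Hsp90aa1 and Hsp90ab1 had no entry. The pair of neighbouring inverted units was searched as GAANNTTC or TTCNNGAA, each the same on both strands, and matches are in capitals. Overlapping matches join into 1 run of capitals. 15.06% of all 32851 windows of this length held at least 1 such pair, and 0.6027% held 3 alternating units in a row. The windows printed are those of Hsph1 (chr5:149636266-149636565, minus strand), Dnajb1 (chr8:83607925-83608224, plus strand), Hspa1a (chr17:34972107-34972406, minus strand) and Hspd1 (chr1:55087883-55088182, minus strand).
Hsph1: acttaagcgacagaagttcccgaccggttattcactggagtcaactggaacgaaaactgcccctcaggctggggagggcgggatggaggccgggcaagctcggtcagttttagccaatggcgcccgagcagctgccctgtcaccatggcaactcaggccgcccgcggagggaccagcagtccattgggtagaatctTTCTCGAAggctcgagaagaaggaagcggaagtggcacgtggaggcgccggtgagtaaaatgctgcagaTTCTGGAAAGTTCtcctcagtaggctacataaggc
Dnajb1: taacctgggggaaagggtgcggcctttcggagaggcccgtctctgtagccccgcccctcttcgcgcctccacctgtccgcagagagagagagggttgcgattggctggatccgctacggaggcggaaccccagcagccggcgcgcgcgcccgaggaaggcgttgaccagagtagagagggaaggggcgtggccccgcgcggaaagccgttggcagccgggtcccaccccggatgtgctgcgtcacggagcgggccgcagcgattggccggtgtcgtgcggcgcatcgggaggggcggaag
Hspa1a: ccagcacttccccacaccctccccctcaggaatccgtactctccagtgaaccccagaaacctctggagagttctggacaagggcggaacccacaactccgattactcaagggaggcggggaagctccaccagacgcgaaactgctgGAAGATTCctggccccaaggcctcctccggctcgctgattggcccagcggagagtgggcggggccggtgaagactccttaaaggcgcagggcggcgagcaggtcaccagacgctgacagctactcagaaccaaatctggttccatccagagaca
Hspd1: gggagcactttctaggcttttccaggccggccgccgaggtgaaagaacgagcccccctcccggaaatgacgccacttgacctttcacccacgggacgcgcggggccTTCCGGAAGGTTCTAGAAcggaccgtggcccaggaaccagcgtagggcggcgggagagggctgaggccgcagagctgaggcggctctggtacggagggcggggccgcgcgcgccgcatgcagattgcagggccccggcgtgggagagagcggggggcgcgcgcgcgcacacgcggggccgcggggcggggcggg
The Hsph1 window held 3 matches, the upstream one starting 54 bases before the start site and an overlapping pair downstream of it that makes 3 alternating units. The Dnajb1 window held none, which says only that these letters are not in it. The Hspa1a window held 1 match, starting 104 bases before the start site, and the Hspa1b window (chr17:34959189-34959488, minus strand) held the same match and differed from that of Hspa1a at 4 positions. Hspd1 and Hspe1 stand head to head. Hsph1, Dnajb1 and Hspd1 each have a second RefSeq window at another annotated start, not printed, with 3, 0 and 0 matches. The second Hspd1 window is the one around the outer end of the gene (chr1:55088243). The printed Hspd1 window stands around a start inside the gene, as do both Hsph1 windows (outer end chr5:149636498). The Hsph1 and Hspd1 matches therefore lie inside the bounds of their own genes. The second Hspd1 window (chr1:55088194-55088493, minus strand) shares 4 bases with that of Hspe1. The Hspe1 window (chr1:55087898-55088197, plus strand) shares 285 bases with the printed Hspd1 window, and the run of 3 overlapping matches printed for Hspd1 therefore lies in both. The Hspb1 window (chr5:135887669-135887968, plus strand) held 2 matches.

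Estimated depth was 15.5 to 21.0 M reads per library in Neuro2a (M, 1e+06) and 15.5 to 20.1 M in the nuclei. Levels are counts per M reads (CPM), and changes are differences of log2(CPM + 0.5), CRISPRa minus VP64 or as named, with the SE of a limma fit. This scale understates changes of low genes. Adjusted p-values come from limma, corrected across every tested gene by the Benjamini-Hochberg method, and a gene passed at 0.05. In bulk samples fewer cells of a type and less RNA per cell cannot be told apart. The labels do not state that samples came from separate cultures, so the p-values reflect sample-to-sample spread that may be partly technical. The Neuro2a column headers carry a leading 7 or 8, here called library sets 7 and 8. Replicates 1 to 3 of each group are in set 7, and replicates 4 to 6 in set 8. What the sets are is not stated. The targeted gene Scn2a had 4.09 to 5.33 CPM in CRISPRa and 2.84 to 3.46 CPM in VP64 libraries, a rise of 0.50 ± 0.10 (adjusted p = 0.00531 by limma). In nuclei it had 258 to 291 CPM in Het CRISPRa, 203 to 260 CPM in Het and 230 to 266 CPM in WT. It passed in none of the 3 comparisons by limma, and every pair of groups overlapped. The sets differed widely: 45.7% of all genes passed between set 8 and set 7 among the VP64 libraries alone. All 7 neuroblastoma markers were at or above 0.5 CPM in Neuro2a, and all 6 neuron markers were in the nuclei. In the nuclei 5 of 5 oligodendrocyte markers and 5 of 5 microglia markers were also at or above 0.5 CPM. For oligodendrocytes they summed to 96.1 to 104, 98.3 to 115 and 96.7 to 119 CPM in Het CRISPRa, Het and WT. In the same order microglia markers summed to 11.1 to 11.7, 7.29 to 17.4 and 9.63 to 14.1 CPM. Neuron markers summed to 2550 to 2718, 2435 to 2513 and 2557 to 2703 CPM. Of the rest, 4 of 5 astrocyte, 1 of 5 vascular and 1 of 3 oligodendrocyte precursor markers reached 0.5 CPM in nuclei. Neuro2a had 3 of 6 neuron, 3 of 3 precursor and 2 of 5 oligodendrocyte markers at that level. It had 2 of 5 microglia, 1 of 5 vascular and 0 of 5 astrocyte markers there.

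Neuro2a libraries held high mRNA levels of the constitutive chaperones, and at most 8 reads a library of each of the classical inducible HSP70 genes and of the small heat shock protein Hspb1. Hsp90ab1, the constitutive cytosolic HSP90, ranked 3rd of 31551 endogenous features by mean CPM. Hspa8, the constitutive HSP70 also called HSC70, ranked 14th. Per length of the longest coding transcript, VP64 libraries had 2041 ± 85.5 CPM per kb of Hsp90ab1, 835 ± 98.8 of Hspa8, 273 ± 20.3 of Hspd1, 231 ± 9.51 of Hspe1, 192 ± 12.8 of Hsp90aa1, 43.6 ± 3.17 of Hsph1 and 24.3 ± 5.14 of Dnajb1 (SD, n = 6). Neighbours in that order had ranges that did not overlap, the closest being Hspd1 at 252 to 303 CPM per kb and Hspe1 at 222 to 244 CPM per kb. Summed, the 10 members took 0.946 ± 0.0309% of all CPM in CRISPRa libraries and 0.885 ± 0.0447% in VP64 libraries (SD, n = 6 each), ranges that overlap. Within each set they did not, at 0.956 to 0.980% in CRISPRa and 0.896 to 0.944% in VP64 libraries of set 8, and 0.909 to 0.949% in CRISPRa and 0.846 to 0.848% in VP64 libraries of set 7. The median log2 change of all tested genes, CRISPRa minus VP64, was also above 0, at 0.02 in set 8 and 0.09 in set 7. Most of the members' sum was Hsp90ab1 and Hspa8, so it says little of the other members. These averaged 5226 and 2273 CPM in CRISPRa and 5144 and 1998 CPM in VP64 libraries.

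The 3 remaining members were at the limit of detection in Neuro2a. Hspa1a, which encodes the inducible HSP70, had 0 to 2 reads in CRISPRa libraries and 0 to 1 reads in VP64 libraries. Its near-copy Hspa1b had 1, 2, 3, 1, 1 and 8 reads in CRISPRa libraries 1 to 6 and 2, 2, 3, 0, 2 and 2 reads in VP64 libraries 1 to 6. Hspb1, the small heat shock protein HSP27 (HSP25 in mouse), had 0 reads in all 6 CRISPRa libraries, which allows up to 0.167 to 0.193 CPM per library at 3 reads, and 1 read in 1 of the 6 VP64 libraries. These intervals cover counting error only. All 3 fell under the filter of 0.5 CPM in 6 libraries and were not tested across genes. On their mean CPM, exact two-sided permutation tests of CRISPRa against VP64 gave p = 0.348 for Hspa1a, 0.727 for Hspa1b and 1 for Hspb1 (n = 6 each), values from 3 of 10 such tests. No fold is given for counts this low.

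**Figure D1:**
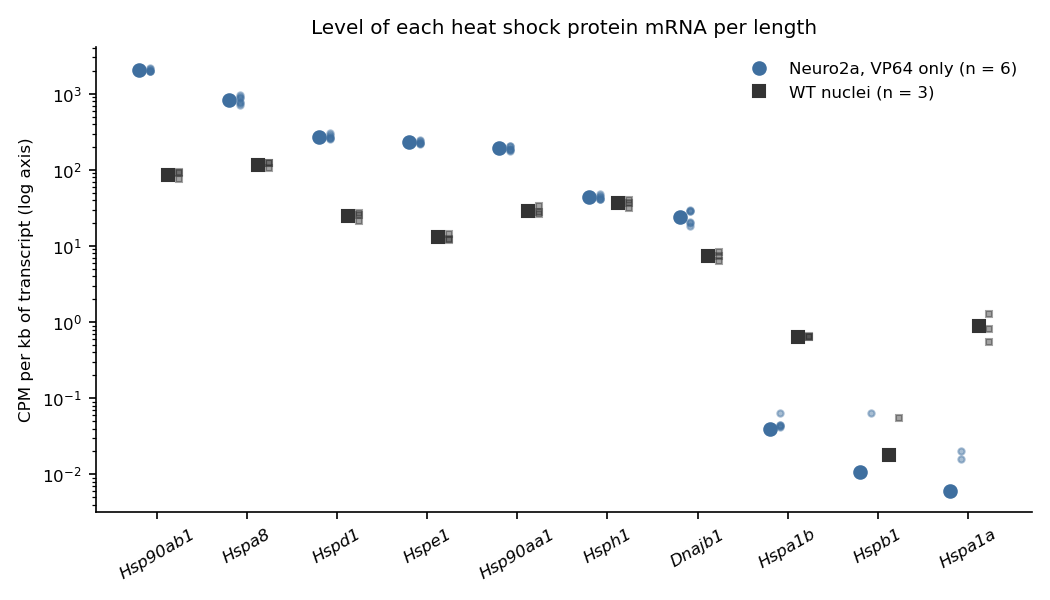
CPM per kb of the longest coding transcript (log axis) for each member in VP64 Neuro2a libraries (blue circles) and WT nuclei (dark squares), large symbols for means and small symbols for single libraries above 0. Hsp90ab1 and Hspa8 lead in Neuro2a at 2041 and 835 CPM per kb, and Hspa1a, Hspa1b and Hspb1 lie far under the rest there, their symbols resting on 0 to 3 reads a library.

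Adding the guide plasmid to the activator was the comparison made in Neuro2a. Of the 7 members tested, 2 rose, 0 fell and 5 did not pass, where 15.0% of all 14398 tested genes passed. Those 2 were Hsph1 and Hsp90aa1. With the replicate block, a fit that pairs same-numbered libraries, 5 passed, Hspa8 and Dnajb1 also rising and Hspd1 falling. The median change of the 7 was 0.18, beside 0.06 over all genes tested. Because the library sets differ in level, each member is given by set below, where 4 members rose and 1 fell in set 7 (46.7% of all genes passed) and 3 rose and 1 fell in set 8 (24.8% passed).

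Hsph1 encodes HSP110 (also HSP105), a nucleotide exchange factor for HSP70 that helps it pull aggregates apart. In set 8 it had 217, 246 and 235 CPM in CRISPRa libraries, against 175, 165 and 155 CPM in VP64 libraries. In set 7 it had 252, 261 and 288 CPM in CRISPRa libraries, against 156, 159 and 185 CPM in VP64 libraries. Every CRISPRa library lay above every VP64 library. The log2 change was 0.59 ± 0.07 over all libraries (adjusted p = 0.000259 by limma), 0.49 ± 0.06 in set 8 (adjusted p = 9.41e-06) and 0.68 ± 0.06 in set 7 (adjusted p = 4.78e-08). The exact two-sided permutation test on mean CPM gave p = 0.00216 over all libraries, the smallest that 6 against 6 can give. The authors' deposited table gives Hsph1 a log2 change of 0.53 (adjusted p = 2.88e-12).

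Hsp90aa1 encodes the stress-inducible form of cytosolic HSP90. It had 690, 729 and 706 CPM in CRISPRa libraries of set 8, against 614, 597 and 579 CPM in VP64 libraries of that set. Set 7 had 953, 995 and 1113 CPM in CRISPRa libraries, against 624, 674 and 684 CPM in VP64 libraries. The groups did not overlap in either set or over all libraries, where the gap was narrow, 690 against 684 CPM. The log2 change was 0.44 ± 0.12 over all libraries (adjusted p = 0.0225 by limma), 0.25 ± 0.05 in set 8 (adjusted p = 0.00102) and 0.63 ± 0.05 in set 7 (adjusted p = 4.41e-09). Over all libraries the call was lost without CRISPRa replicate 1 (0.40, adjusted p = 0.0550) or without CRISPRa replicate 2 (0.39, adjusted p = 0.0548). The authors' deposited table has 0.39 (adjusted p = 0.00366).

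Hsp90ab1, the constitutive partner gene, had 5383, 5160 and 5371 CPM in CRISPRa libraries of set 8, against 5064, 5366 and 5463 CPM in VP64 libraries. CRISPRa libraries of set 7 had 5129, 5086 and 5228 CPM, against 4991, 4946 and 5035 CPM in VP64 libraries. Its change over all libraries was 0.02 ± 0.06 (adjusted p = 0.84 by limma), and its sign turned under median-of-ratios scaling (-0.04). In set 7 it was 0.04 ± 0.04 (adjusted p = 0.434), but 0.47 under quantile scaling, which passed (adjusted p = 1.14e-08). Quantile scaling gives each rank the same value in all libraries, and the top-ranked Hsp90ab1 moved by a step between such values. That p-value therefore does not measure the spread between replicates. The same step, as -0.47, came back in the difference of guide effects and in set 8 minus set 7 among CRISPRa libraries. Within a library, the ratio of Hsp90aa1 to Hsp90ab1 CPM, which a scaling factor per library leaves as it is but quantile scaling does not, was 0.134 ± 0.0068 in CRISPRa and 0.113 ± 0.0077 in VP64 libraries of set 8, and 0.198 ± 0.0137 in CRISPRa and 0.132 ± 0.0064 in VP64 libraries of set 7 (SD, n = 3 each). The ratio was higher in CRISPRa libraries within both sets. Under quantile scaling the set 7 changes were 0.68 for Hsp90aa1 and 0.47 for Hsp90ab1, closer to each other than on the deposited CPM. The Hsp90ab1 value is that step between rank values.

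Hspa8 had 2564, 2513 and 2618 CPM in CRISPRa libraries of set 8, against 2100, 2201 and 2303 CPM in VP64 libraries. The values in set 7 were 1984, 1954 and 2003 CPM in CRISPRa libraries, against 1842, 1834 and 1709 CPM in VP64 libraries. CRISPRa was above VP64 within both sets, while VP64 libraries of set 8 were above CRISPRa libraries of set 7. The change was 0.22 ± 0.04 in set 8 (adjusted p = 0.000772 by limma) and 0.14 ± 0.04 in set 7 (adjusted p = 0.0105). Over all libraries it was 0.18 ± 0.11 and did not pass (adjusted p = 0.266). It passed with the replicate block (adjusted p = 0.0137) and under quantile scaling, where it was 0.41 (adjusted p = 0.000234). That scaling also gave 0.35 in set 8 (adjusted p = 1.38e-06) and 0.46 in set 7 (adjusted p = 1.58e-08). Hspa8 is among the highest genes, whose values that scaling ties to rank values, so these quantile p-values may not measure replicate spread. In set 7 the call was lost under median-of-ratios scaling (0.06, adjusted p = 0.319) and without VP64 replicate 3 (0.11, adjusted p = 0.0559).

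Reads of Hspa8 are hard to place. GENCODE M21 annotates Gm15459 as a processed pseudogene of 1941 bases, of which 86.8% of the 50-base windows occur unchanged in an Hspa8 transcript. Gm15459 was listed at 833 to 1125 CPM in CRISPRa libraries and at 738 to 990 CPM in VP64 libraries, which is 41.3 to 44.99% of the Hspa8 value in the same library. In the nuclei it had 1.37 to 3.41 CPM, only 0.676 to 1.442% of Hspa8. Its change in Neuro2a, 0.17 ± 0.04 in set 8 (adjusted p = 0.00586 by limma) and 0.16 ± 0.04 in set 7 (adjusted p = 0.00442), ran beside that of Hspa8. How reads with several alignments were shared out is not stated in the sources used here, so the Hspa8 level is uncertain by that amount.

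Dnajb1 encodes the J-domain protein HSP40, which delivers substrates to HSP70. In set 8 it had 91.9, 93.0 and 90.1 CPM in CRISPRa libraries, against 86.2, 85.6 and 88.0 CPM in VP64 libraries. Set 7 had 73.5, 75.1 and 78.6 CPM in CRISPRa libraries, against 60.4, 54.7 and 61.5 CPM in VP64 libraries. The groups were apart within each set, by little in set 8. The change was 0.36 ± 0.05 in set 7 (adjusted p = 6.63e-06 by limma), and 0.08 ± 0.05 in set 8, which did not pass (adjusted p = 0.266). Over all libraries it was 0.22 ± 0.13 (adjusted p = 0.261), and with the replicate block it passed (adjusted p = 0.0174).

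Of the mitochondrial pair, Hspd1 fell within each set and Hspe1 did not pass on the deposited CPM, and the calls of both turned on the scaling. Hspd1, which encodes HSP60, the barrel of the chaperonin, had 609, 637 and 606 CPM in CRISPRa libraries of set 8, against 734, 705 and 664 CPM in VP64 libraries. Set 7 had 538, 556 and 605 CPM in CRISPRa libraries, against 629, 626 and 610 CPM in VP64 libraries. Every CRISPRa library was below every VP64 library of its own set. The change was -0.18 ± 0.05 in set 8 (adjusted p = 0.00552 by limma) and -0.14 ± 0.05 in set 7 (adjusted p = 0.0187), and over all libraries -0.16 ± 0.06, which did not pass (adjusted p = 0.101). With the replicate block it passed (adjusted p = 0.0168). The set 8 call was lost under quantile scaling (-0.12, adjusted p = 0.0665). In set 7 the change was -0.22 under median-of-ratios scaling (adjusted p = 0.000387). That set 7 call was lost under quantile scaling, with no filter, with limma without trend, and without any 1 of CRISPRa replicates 1 and 2 or VP64 replicates 1 and 2, the adjusted p then running up to 0.108. In the authors' deposited table Hspd1 has -0.22 (adjusted p = 0.0302).

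Hspe1 encodes HSP10, the lid of that chaperonin. It had 187, 181 and 172 CPM in CRISPRa libraries of set 8, against 189, 177 and 188 CPM in VP64 libraries. In set 7 it had 156, 168 and 171 CPM in CRISPRa libraries, against 174, 176 and 172 CPM in VP64 libraries. Its changes of -0.03 ± 0.04 in set 8 and -0.08 ± 0.04 in set 7 did not pass (adjusted p = 0.627 and 0.183 by limma). Under median-of-ratios scaling the set 7 change was -0.16 and passed (adjusted p = 0.00594). The ratio of Hspd1 to Hspe1 CPM ran from 3.26 to 3.54 in CRISPRa libraries and from 3.54 to 3.99 in VP64 libraries, with 3.539 as the highest CRISPRa and 3.540 as the lowest VP64 value.

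**Figure D2:**
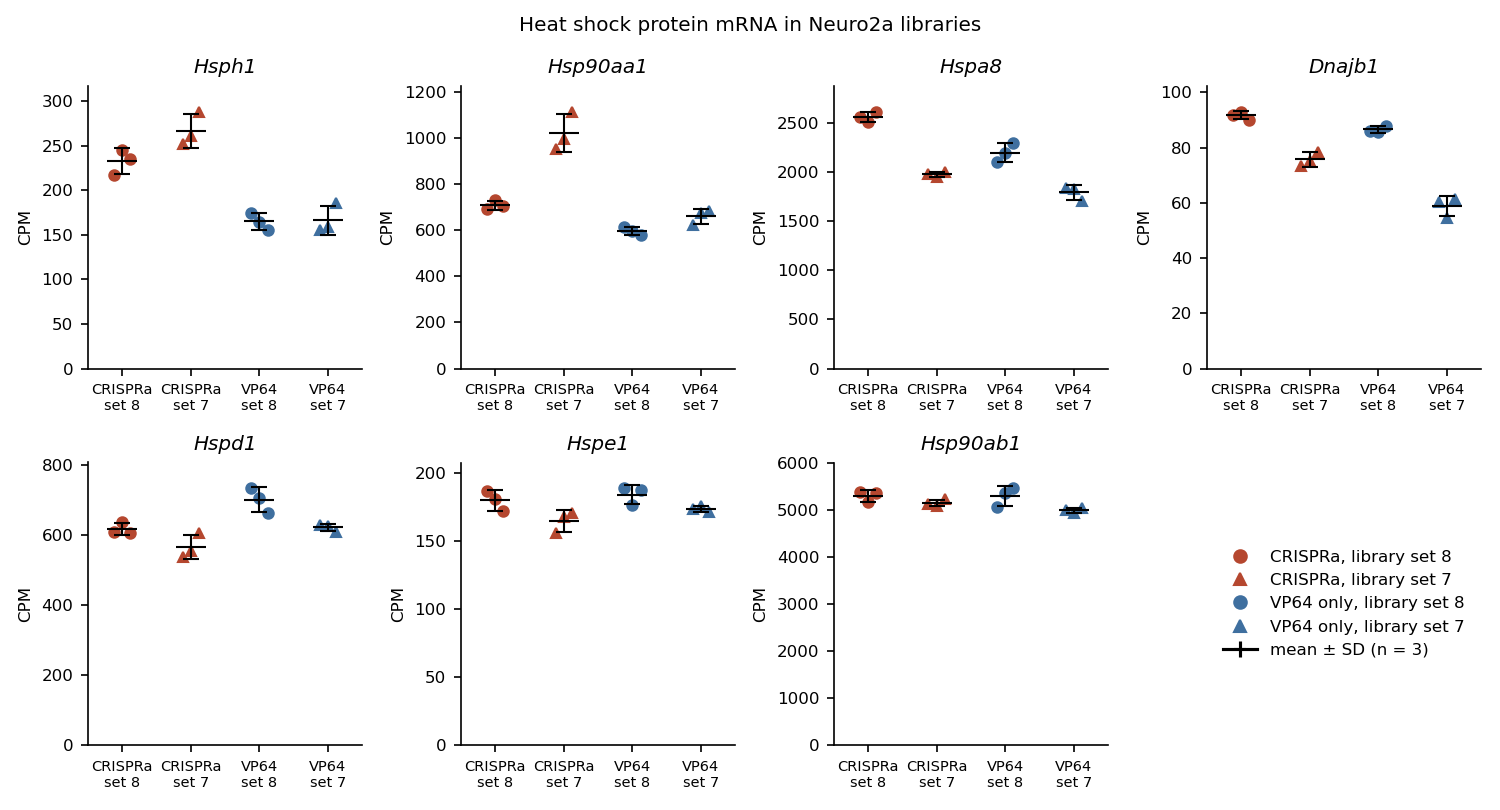
CPM of the 7 tested members in each Neuro2a library, CRISPRa in red and VP64 in blue, circles for library set 8 and triangles for set 7, with mean ± SD of 3 libraries. Hsph1 and Hsp90aa1 are above VP64 in every CRISPRa library, and Hspa8 and Dnajb1 are higher in set 8 than in set 7 in both groups.

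The difference between the sets was tested as the guide effect in set 8 minus that in set 7, which 21.8% of all genes passed. Of the 7 members, 0 were higher and 2 lower. The difference was -0.38 ± 0.07 for Hsp90aa1 (adjusted p = 0.000742 by limma) and -0.28 ± 0.07 for Dnajb1 (adjusted p = 0.00792). For Hsph1 it was -0.19 ± 0.09 and did not pass (adjusted p = 0.154), though it did without VP64 replicate 3 (-0.27, adjusted p = 0.0246). It was 0.08 ± 0.06 for Hspa8, -0.05 ± 0.06 for Hspd1, -0.04 ± 0.06 for Hsp90ab1 and 0.04 ± 0.06 for Hspe1, none of which passed. Under quantile scaling the sign turned for Hspa8 (-0.10), and that of Hsp90ab1 became -0.47 and passed (adjusted p = 7.21e-06). Those are the top-ranked members, whose values that scaling ties to the ranks of the highest genes. For Hsp90ab1 this is the step between rank values named above, so its p-value does not measure replicate spread.

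**Figure D3:**
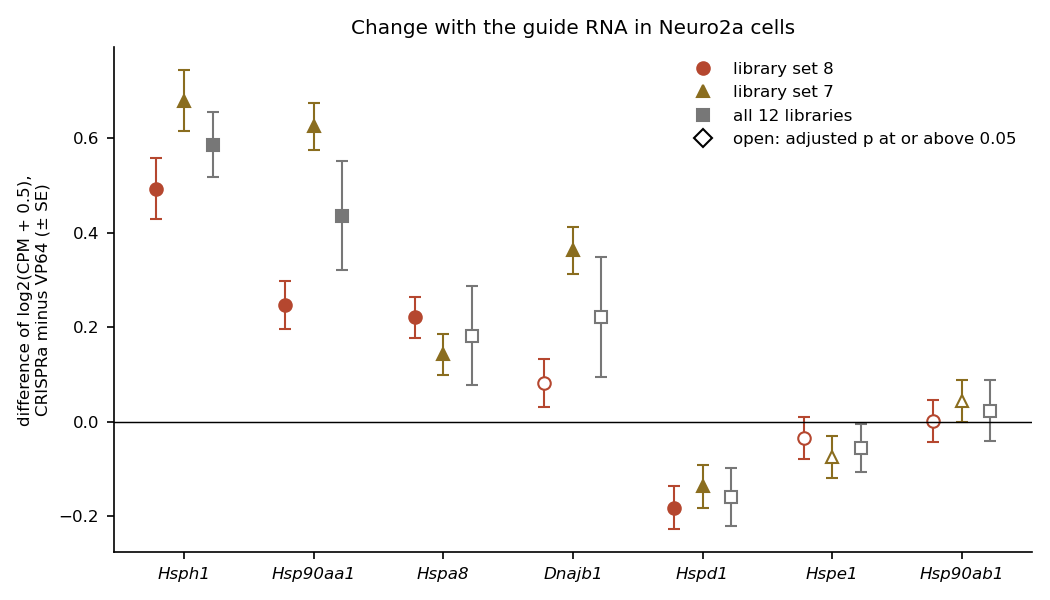
Difference of log2(CPM + 0.5), CRISPRa minus VP64, with its SE for the 7 tested members in library set 8 (red circles), set 7 (brown triangles) and all 12 libraries (grey squares), filled where the adjusted p was under 0.05. Hsph1 is filled in all 3 at 0.49, 0.68 and 0.59, Hsp90aa1 and Dnajb1 differ between the sets, and Hspd1 is below 0 throughout.

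Set 8 against set 7 was also read within each treatment. Among CRISPRa libraries 4 of the 7 members were higher and 2 lower in set 8 (54.7% of all genes passed), and among VP64 libraries 3 were higher and 1 lower (45.7% passed). Dnajb1 differed most among VP64 libraries, with set 8 averaging 86.6 ± 1.22 CPM and set 7 58.8 ± 3.66 CPM (SD, n = 3 each), a log2 difference of 0.56 ± 0.05 (adjusted p = 2.39e-08 by limma). Hspa8 was higher in set 8 by 0.37 ± 0.04 among CRISPRa libraries (adjusted p = 4.32e-07) and by 0.29 ± 0.04 among VP64 libraries (adjusted p = 1.29e-05). Hsp90aa1 was lower in set 8 in both, by -0.52 ± 0.05 among CRISPRa libraries (adjusted p = 2.9e-08) and -0.15 ± 0.05 among VP64 libraries (adjusted p = 0.022). The VP64 call was lost with no filter, under median-of-ratios scaling, with limma without trend, and without any 1 of VP64 replicates 2, 3, 5 and 6. Under quantile scaling the Hspa8 difference was -0.03 among CRISPRa libraries and 0.07 among VP64 libraries, and neither passed. The CRISPRa calls of Hsph1, Hspd1 and Hspe1 were lost with no filter and with limma without trend. That of Hsph1 was also lost under both scalings and without CRISPRa replicate 3 or 4, that of Hspd1 under quantile scaling and without CRISPRa replicate 1, 2 or 5, and that of Hspe1 without CRISPRa replicate 1, 4 or 5. Hsp90ab1 gained a call under median-of-ratios scaling, 0.12 among CRISPRa libraries (adjusted p = 0.0278) and likewise 0.12 among VP64 libraries (adjusted p = 0.0446). Among VP64 libraries Hspd1 lost its call under quantile scaling (0.09), and Hspe1 gained one under both scalings (0.11 and 0.15).

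Other measures moved with these groups. An mCherry-puromycin transgene had 1574 to 5782 CPM in CRISPRa libraries and 0 CPM in VP64 libraries, so CRISPRa and VP64 differed by that transcript as well as by the guide, and the effects of both cannot be told apart. CRISPRa samples also received 750 ng of guide plasmid beside the activator plasmid. An effect of added plasmid DNA cannot be told apart from these either. The sadCas9-VP64 transcript averaged 600 CPM in CRISPRa and 349 CPM in VP64 libraries of set 8, and 1977 CPM in CRISPRa and 2550 CPM in VP64 libraries of set 7. Immediate early gene mRNAs summed to 862 CPM in CRISPRa and 676 CPM in VP64 libraries of set 8, and to 911 CPM in CRISPRa and 512 CPM in VP64 libraries of set 7, and 10 of the 11 tested rose over all libraries. Mitochondrially encoded mRNAs took 1.33 ± 0.146% of CPM in CRISPRa and 0.933 ± 0.0915% in VP64 libraries (SD, n = 6 each). The part of these measures in the chaperone changes was not tested.

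The wider chaperone network was read from 9 lists of 92 genes, 86 of them tested. Over all libraries 16 rose and 1 fell, 19.8% of those tested beside 15.0% of all genes. The J-domain list had 3 of 12 rise, Dnajb4 (0.78 ± 0.17, adjusted p = 0.00765 by limma), Dnaja1 (0.39 ± 0.07) and Dnajb2 (0.39 ± 0.06). Of the HSP90 co-chaperones 4 of 16 rose, the ATPase activator Ahsa1 (0.40 ± 0.08), the myosin chaperone Unc45a (0.30 ± 0.06), the HSP70-HSP90 adaptor Stip1 (0.28 ± 0.06) and Cdc37l1 (0.23 ± 0.06). Bag3, which couples HSP70 to autophagy, was the 1 of 9 HSP70 co-chaperones to rise (0.48 ± 0.10). Of the small heat shock proteins 2 of 4 tested rose, the crystallin Cryab (0.90 ± 0.22) and Hspb8 (0.25 ± 0.07), the partner of Bag3.

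Of the other HSP70 genes Hspa1l alone of 8 rose (0.85 ± 0.19), at low levels. It had 1.24 ± 0.35 CPM in CRISPRa and 0.839 ± 0.0185 CPM in VP64 libraries of set 8, which did not pass (0.36 ± 0.21, adjusted p = 0.245 by limma). Set 7 had 2.29 ± 0.177 CPM in CRISPRa and 0.605 ± 0.114 CPM in VP64 libraries (SD, n = 3 each), which passed (1.34 ± 0.21, adjusted p = 3.04e-05), and the difference between the sets passed too (-0.98 ± 0.30, adjusted p = 0.0236). The list of other HSF1 target genes had 4 of 7 rise, among them the stress factor Atf3 (0.58 ± 0.12), Ier5 (0.40 ± 0.10) and the polyubiquitin gene Ubb (0.18 ± 0.05). The cytosolic chaperonin and prefoldin list had 1 of 14, Pfdn2 (0.20 ± 0.06), and 0 of the 4 tested heat shock factors and regulators passed. Of 12 mitochondrial chaperones and proteases 0 rose and 1 fell, the matrix protease Lonp1 (-0.45 ± 0.13, adjusted p = 0.0301).

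By set, 22 of the 86 rose and 7 fell in set 8 (33.7%, beside 24.8% of all genes), and 46 rose and 9 fell in set 7 (64.0%, beside 46.7%). Of all genes 14.4% rose in set 8 and 29.7% in set 7. Of the HSP90 co-chaperones 4 rose and 1 fell in set 8 and 12 rose and 0 fell in set 7. Mitochondrial chaperones split, with 1 up (Grpel2, 0.25 ± 0.06) and 1 down (Lonp1, -0.25 ± 0.05) in set 8. In set 7, 3 were up (Clpp, Afg3l2 and Trap1) and 4 down (Lonp1, -0.65 ± 0.05, Hspa9, -0.38 ± 0.04, Dnaja3 and Clpb). Hspa9, the matrix HSP70 that pulls in imported proteins, had 1271 ± 18.2 CPM in CRISPRa and 1226 ± 28.7 CPM in VP64 libraries of set 8, and 1082 ± 17 CPM in CRISPRa and 1403 ± 38.5 CPM in VP64 libraries of set 7 (SD, n = 3 each). Its guide effect differed between the sets by 0.43 ± 0.05 (adjusted p = 1.02e-05 by limma). Hsf1 itself had 79.3 ± 3.19 CPM in CRISPRa and 81.6 ± 1.119 CPM in VP64 libraries of set 8, and 104 ± 1.72 CPM in CRISPRa and 91.1 ± 5.58 CPM in VP64 libraries of set 7, a difference between sets of -0.24 ± 0.07 (adjusted p = 0.0202).

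**Figure D4:**
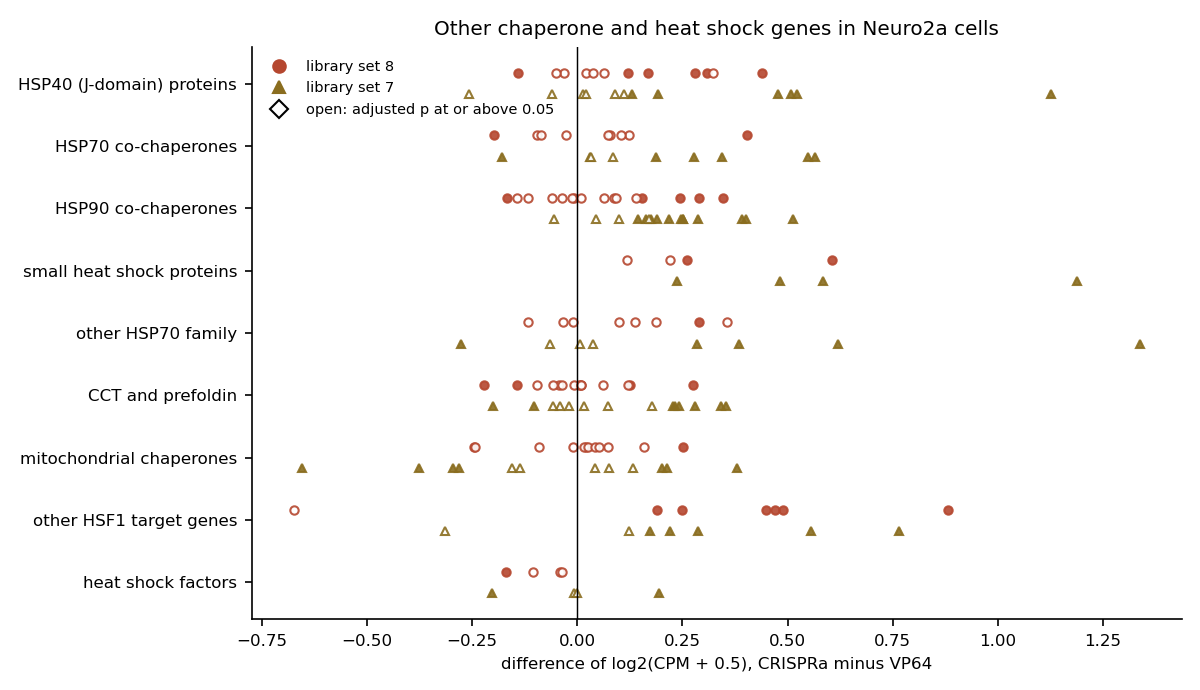
Difference of log2(CPM + 0.5), CRISPRa minus VP64, for each tested gene of 9 chaperone and heat shock lists, red circles for library set 8 and brown triangles for set 7, filled where the adjusted p was under 0.05. Filled points lie mostly right of 0 for the HSP90 co-chaperones and small heat shock proteins and on both sides for the mitochondrial chaperones.

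Among the members, levels over the 12 Neuro2a libraries ran together in several combinations. Pearson's r of log2(CPM + 0.5) was 0.88 between Hspa8 and Dnajb1, 0.79 between Hsp90ab1 and Dnajb1 and 0.77 between Hsp90ab1 and Hspa8. It was 0.87 between Hsp90aa1 and Hsph1 and 0.77 between Hspd1 and Hspe1, and it was -0.74 between Hsp90aa1 and Hspd1. The most similar other genes were Rundc1 (0.97) for Hsph1, Gm15459 (0.98) for Hspa8, Fem1b (0.99) for Dnajb1, Ciart (0.95) for Hspd1, Cox7c (0.91) for Hspe1 and Ogfrl1 (0.91) for Hsp90ab1. These libraries share their guide groups and library sets, so the values describe the same 4 blocks of 3 libraries.

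In the sorted nuclei the comparisons asked how Scn2a heterozygosity and the activator bear on cortical neurons. Of the 9 members tested, 0 passed in any of the 3 comparisons by limma, and Hspb1, with 0 to 3 reads a library, was under the filter. Of all 18967 genes, 0.0422% passed for Het CRISPRa minus Het, 0.00527% for Het CRISPRa minus WT and 0% for Het minus WT. At an unadjusted p under 0.05 these were 996, 335 and 951 genes. The authors' deposited tables also have 0 members under 0.05 in the 3 comparisons. These comparisons share samples. With 3 mice a group, an exact permutation test cannot go below p = 0.1. In Het CRISPRa nuclei the sadCas9-VP64 transcript had 4.09 to 7.12 CPM and the mCherry-puromycin transcript 1.45 to 1.84 CPM. Both had 0 CPM in Het and WT nuclei. In Neuro2a CRISPRa libraries sadCas9-VP64 had 564 to 2154 CPM, though those are whole cells. The part of this low activator level in the result for the members was not tested.

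Nuclear levels were ordered differently from Neuro2a. Hspa8 led per length in WT nuclei at 117 ± 9.01 CPM per kb, before Hsp90ab1 at 86.7 ± 9.95, Hsph1 at 36.4 ± 4.48, Hsp90aa1 at 29.1 ± 3.55, Hspd1 at 24.4 ± 2.87, Hspe1 at 12.9 ± 1.34 and Dnajb1 at 7.32 ± 0.90 CPM per kb (SD, n = 3). Hsph1 and Hsp90aa1 stood less than 2 SD apart, as did Hsp90aa1 and Hspd1, and Hspd1 (from 21.3 CPM per kb) lay above Hspe1 (up to 14.5 CPM per kb) without overlap. Against WT nuclei, the VP64 Neuro2a mean in CPM was 23.5 times as high for Hsp90ab1, 17.9 for Hspe1, 11.2 for Hspd1, 7.12 for Hspa8 and 1.20 for Hsph1. The tables were normalized separately and whole cells are set beside nuclei, so no test was made. Hspa1a and Hspa1b, at the limit of detection in Neuro2a, had 20 to 72.3 and 22.2 to 44.4 estimated reads in every library of nuclei.

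Dnajb1 had 16.4, 18.2 and 17.8 CPM in Het CRISPRa nuclei, 13.8, 17.9 and 16.0 CPM in Het nuclei and 21.9, 24.6 and 19.2 CPM in WT nuclei. All 6 Scn2a+/- libraries were below all 3 WT libraries. The log2 difference was -0.45 ± 0.15 for Het minus WT (adjusted p = 0.875 by limma) and -0.32 ± 0.15 for Het CRISPRa minus WT (adjusted p = 1.00), and neither passed. The exact permutation p was 0.1 for both, the smallest that 3 against 3 can give. The share of all genes with groups apart in this way, here or for Hspa8 and Hspe1 below, was not counted. The authors' deposited tables have -0.42 and -0.31.

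Hspa8 had 244, 228 and 184 CPM in Het CRISPRa nuclei, 284, 236 and 178 CPM in Het nuclei and 292, 294 and 256 CPM in WT nuclei. The Het CRISPRa libraries were all below WT, and Het overlapped both. Differences were -0.37 ± 0.15 for Het CRISPRa minus WT, -0.07 ± 0.15 for Het CRISPRa minus Het and -0.29 ± 0.15 for Het minus WT, with adjusted p of 1.00, 0.911 and 0.875 by limma.

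Hspe1 had 7.64, 11.6 and 6.02 CPM in Het CRISPRa nuclei, 8.30, 8.30 and 7.31 CPM in Het nuclei and 11.2, 9.34 and 9.50 CPM in WT nuclei. Het lay below WT without overlap, at -0.31 ± 0.22 (adjusted p = 0.875 by limma), and Het CRISPRa spanned both. AC117239.2, which shares 54.7% of its 50-base windows with Hspe1, had 1.17 to 2.48 CPM in the nuclei, so reads may be split between them. Hspd1, the partner of Hspe1, averaged 57.9 ± 3.31 CPM in Het CRISPRa, 54.0 ± 4.61 in Het and 59.2 ± 6.97 in WT nuclei. Hsp90aa1 averaged 85.3 ± 11.2, 84.7 ± 9.71 and 95.6 ± 11.7 CPM in Het CRISPRa, Het and WT nuclei. Hsp90ab1 averaged 190 ± 10.5, 222 ± 53.8 and 219 ± 25.1 CPM, and Hsph1 averaged 131 ± 14.6, 127 ± 11.9 and 138 ± 17.02 CPM in the same order (SD, n = 3). These 4 overlapped between all groups.

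Hspa1a and Hspa1b sit side by side on chromosome 17 and share 638 bases unbroken. On GENCODE M21 transcripts 47.1% of the 100-base windows of Hspa1a occur in Hspa1b and 49.9% of those of Hspa1b occur in Hspa1a, so reads can be split between them. Hspa1a had 1.70, 2.75 and 4.03 CPM in Het CRISPRa nuclei, 1.19, 3.09 and 1.95 CPM in Het nuclei and 1.61, 2.42 and 3.82 CPM in WT nuclei. Hspa1b averaged 1.94 ± 0.485, 1.76 ± 0.446 and 1.81 ± 0.0367 CPM in Het CRISPRa, Het and WT nuclei. Their sum was 4.77 ± 1.06 CPM in Het CRISPRa, 3.83 ± 1.21 CPM in Het and 4.43 ± 1.15 CPM in WT nuclei (SD, n = 3), and did not pass for any comparison (0.30 ± 0.28 for Het CRISPRa minus Het, adjusted p = 0.817 by limma). The groups overlapped.

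Summed, the 10 members made up 0.0714 ± 0.0032% of CPM in Het CRISPRa, 0.0749 ± 0.01005% in Het and 0.0829 ± 0.0068% in WT nuclei (SD, n = 3). Het overlapped both other groups, and Het CRISPRa (up to 0.0747%) lay below WT (from 0.0759%). Of the 85 genes of the 9 other chaperone lists tested in nuclei, 0 passed in any of the 3 comparisons by limma.

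**Figure D5:**
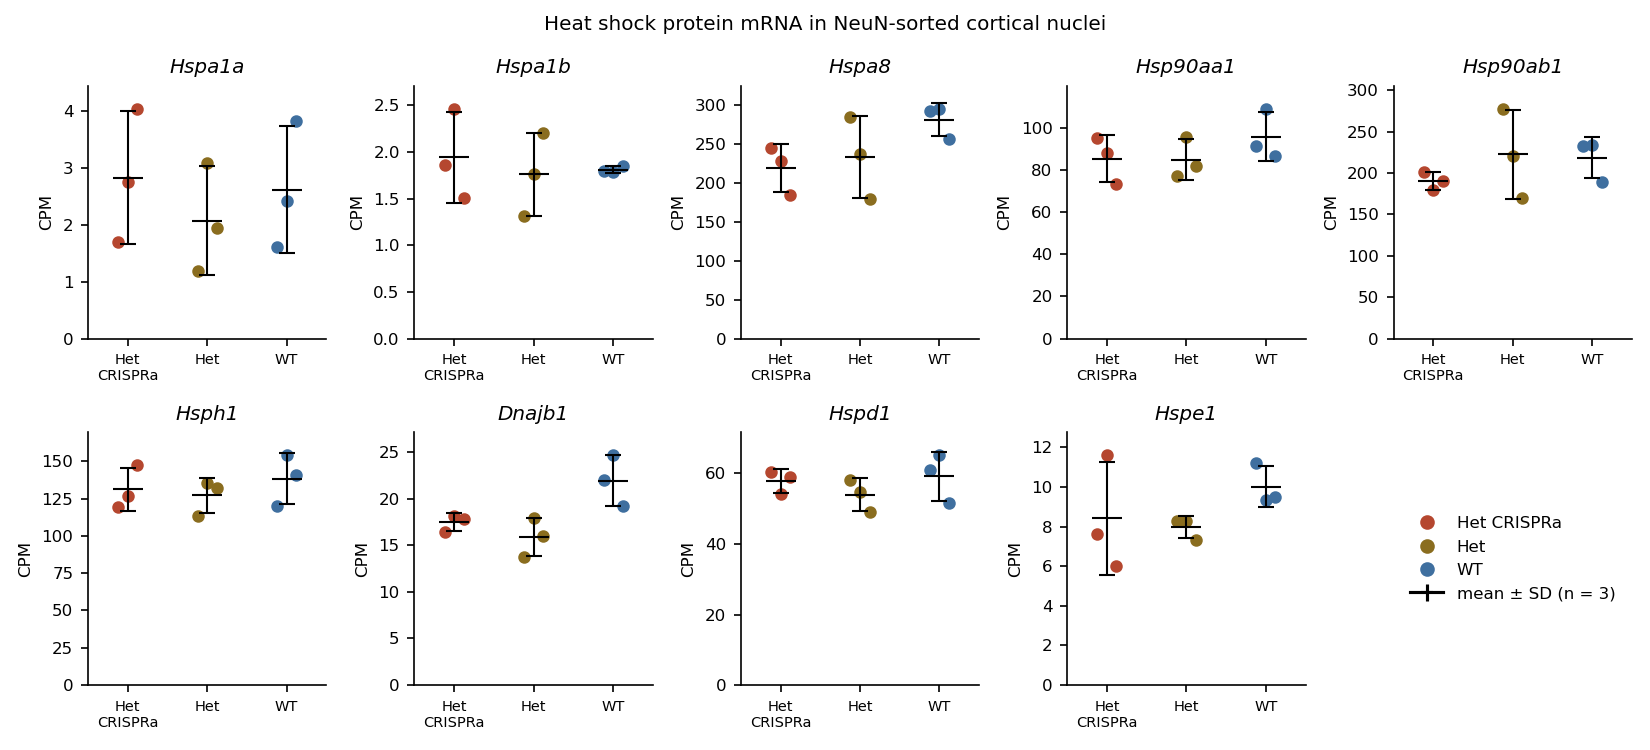
CPM of the 9 tested members in each library of NeuN-sorted nuclei, Het CRISPRa in red, Het in brown and WT in blue, with mean ± SD of 3 libraries. WT libraries of Dnajb1 (19.2 to 24.6 CPM) lie above the Scn2a+/- libraries (13.8 to 18.2 CPM), in differences that did not pass. The groups of most other members overlap.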

How the data were processed

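PolyA RNA sequencing of 12 Neuro2a samples and 9 samples of NeuN-sorted mouse nuclei was read from the authors' deposited tables. Per the file headers these hold CPM, normalized by the authors per library. Per the submitters' processing notes, the tools were R 4.4, featureCounts, DESeq2 1.44 and STAR 2.7.8a, on GRCm39 (mm39). The tool that made the CPM, the strand setting and the handling of reads with several alignments are not given in the sources used here. The authors' deposited tables of comparisons hold a base mean signal, a log2 fold change with its SE, a Wald score, a p-value and an adjusted p-value, and were used only where named. Their wild-type against Het values were turned to Het minus WT.

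Depth was taken from the CPM of 1 read. At that scale 70.8 to 73.2% of Neuro2a and 79.9 to 82.4% of mouse values above 0 lay within 0.01 of a whole read, so the tables hold estimated reads and count tests were not run. Genes reaching 0.5 CPM in 6 or more Neuro2a (3 or more mouse) libraries were tested with limma 3.58.1 in R 4.3.3 (lmFit, eBayes with trend) on log2(CPM + 0.5), with Benjamini-Hochberg adjustment over all genes and 0.05 as the threshold. Transgenes were kept out. Neuro2a was fitted as 2 groups and again as 4 groups by library set, and the mouse libraries as 3 groups. Exact permutation tests, plots and sequence searches used Python 3.11.15, scipy 1.17.1 and matplotlib 3.10.9. The fits were tested on simulated data.

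Neuro2a libraries of the same number deviated together from their group means (r = 0.305 to 0.499, each above 0.1), and an alternative therefore paired them. Once library set and group means were removed these were -0.0708 to 0.0229. The members and lists were chosen with earlier results of these data known. Named genes are the members, and up to 4 called genes per other list, comparison and direction by p. The rule also named the 3 genes most like each member over the 12 Neuro2a libraries, of which the first is printed, except for Hsp90aa1. Some genes that the rules name are not reported here. Promoter windows of members that did not pass in the pooled comparison were added after their values were seen. Gm15459 and the other copies were searched after the levels had been seen. Promoter windows are from RefSeq (GRCm38.p6) and transcripts from GENCODE M21, another build than the files', so they were matched by symbol or gene ID. Alternatives were other pseudocounts, no filter, median-of-ratios or quantile scaling, limma without trend, the replicate block, library set as a covariate, and leaving out each library.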

Additional observations from a re-analysis of the deposited data

Results flagged for a closer look

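Of 19 sets of 6 Neuro2a values examined for a library far from the rest, 3 had one. All 3 were of Hspa1b or Hspb1 at 0 to 8 reads a library. At such counts a single read can set a library apart, so no chance rate is given. CRISPRa replicate 6 had 0.512 CPM of Hspa1b, 8 reads against 1 to 3 in the others. VP64 replicate 4 had 0 CPM of Hspa1b, against 2 to 3 reads in the others. VP64 replicate 5 had 0.0597 CPM of Hspb1, a single read where the others had 0.

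The guide effect differed between the library sets for Hsp90aa1, by -0.38 ± 0.07 as set 8 minus set 7, and for Dnajb1, by -0.28 ± 0.07, both past the test of the difference by limma. The cause was not tested.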

How the results depend on the processing

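Of 1281 values of single members under an alternative, 1186 kept their direction and side of the threshold, 38 lost the call, 15 gained it and 42 changed sign. Hsph1 rose over all Neuro2a libraries in each of the 20 alternatives run for it, and Hsp90aa1 in 18 of 20, the exceptions being those without CRISPRa replicate 1 or 2. Between 1 and 2 members passed over all libraries when 1 library was left out. With the replicate block 5 passed, and with library set as a covariate also 5, those added being Hspa8, Dnajb1 and Hspd1. In set 8 minus set 7 among CRISPRa libraries, 3 members passed without the filter and 3 with limma without trend, against 6. Of all genes, 4513 passed with the replicate block and 5685 with the covariate, against 2166. Over all Neuro2a libraries 1443 genes rose and 723 fell, against 1059 and 1101 under median-of-ratios scaling and 1058 and 1015 under quantile scaling. The calls were likewise near evenly split by both scalings in set 8 (1644 and 1973, 1670 and 1820, against 2073 and 1502) and set 7 (3084 and 3401, 3079 and 3203, against 4276 and 2443).

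Most sign changes were of values within 0.1 of 0, the exceptions being Hspa8 and Hsp90ab1 under quantile scaling and some nuclear values. Median-of-ratios scaling gave Hsp90ab1 -0.037 over all libraries, -0.033 in set 8, -0.041 in set 7 and 0.0084 for their difference, Hspd1 0.0044 for that difference, Hsph1 0.019 for set 8 minus set 7 among VP64 libraries, and Hsp90aa1 -0.022 for Het CRISPRa minus Het. Quantile scaling gave Hspa8 -0.10 for the difference of guide effects and -0.032 for set 8 minus set 7 among CRISPRa libraries, Hsp90ab1 -0.47 there, Hsph1 0.045 among VP64 libraries, Hspa1b 0.028 and Hsp90ab1 -0.024 for Het minus WT, and Hsp90aa1 -0.010 for Het CRISPRa minus Het. Hsp90ab1 in set 7 alone was 0.47 under it, with an adjusted p of 1.14e-08 by limma, the step between rank values described above. The cause of the other sign changes was not tested.

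With 1 library left out, Hsp90ab1 in set 8 ran from -0.030 to 0.025, Hspd1 in the difference of guide effects from -0.085 to 0.0025, and Hsph1 in set 8 minus set 7 among VP64 libraries from -0.056 to 0.069. For Het minus WT, Hspa1b ran from -0.19 to 0.097 and Hsp90ab1 from -0.17 to 0.18. For Het CRISPRa minus Het, Hspa1b ran from -0.037 to 0.25, Hspa8 from -0.25 to 0.082, Hsp90aa1 from -0.076 to 0.11, Hsph1 from -0.043 to 0.11 and Hspe1 from -0.21 to 0.23. For Het CRISPRa minus WT, Hspa1a ran from -0.16 to 0.36, Hspa1b from -0.087 to 0.20, Hsph1 from -0.17 to 0.0071 and Hspd1 from -0.12 to 0.044.

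Mouse libraries of the same number had correlations of -0.110 to 0.418 and share only a number. A block on it let 0 members pass, and 31 genes for Het CRISPRa minus Het, against 8. That count was 2 with no filter, 3 with limma without trend, and 0 to 38 with 1 library left out. Depth limits Hspa1a, Hspa1b and Hspb1 in Neuro2a and Hspb1 in nuclei, where a few reads decide the value. The SE of the 7 members tested in both tables was 0.12 to 0.22 in nuclei, against 0.05 to 0.13 over all Neuro2a libraries.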

Other observations

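Other transcripts that share at least 20% of their 50-base windows with a member were looked up on GENCODE M21, a search made after the levels had been seen. For Hsp90aa1 they were the pseudogenes Gm12346 (14.7 to 31.3 CPM in Neuro2a, 0.381 to 1.21 CPM in nuclei), Gm5844 (4.05 to 8.91 CPM in Neuro2a) and Gm5511, whose highest Neuro2a value was 0.506 CPM. For Hspa8, beside Gm15459, Gm8355 had 5.33 to 8.93 CPM in Neuro2a. Hspd1-ps3 had 6.84 to 9.15 CPM in Neuro2a beside Hspd1. No such transcript was found for Hsp90ab1, Hsph1 or Dnajb1 in that annotation.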
